A study of Mus musculus with 24 samples.

Results

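The comparison was between hormone-treated HC11 cells given siPINC1.0/1.6 and hormone-treated HC11 cells given siPINC, 6 of the 24 arrays of the study. The 6 arrays were chosen by their titles, 3 cultures in each group, and all lay on 1 slide. *mPINC* is a mouse noncoding RNA induced in the mammary gland by pregnancy, spliced into *mPINC1.0*, *mPINC1.6* and a form called *DCR2* that lacks conserved sequence. The siRNAs were given in pairs: siPINC1.0/1.6 was directed at the 2 major forms and siPINC at every form, *DCR2* included. By the study's description of the pairs 1 siRNA was common to both, so the groups differed in the second siRNA of the pair. The question was whether cells with and without *DCR2* among the targets differed in their RNA.

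HC11 is a line of mouse mammary epithelial cells whose parent culture, Comma-D, was taken from a pregnant Balb/c animal. With prolactin, insulin and hydrocortisone, the lactogenic hormones (+LH), the cells are induced to make milk proteins. Cells without this treatment are marked −LH, and "without hormones" below means these cells. By the study's methods insulin was also in the growth and priming media, and prolactin and hydrocortisone were added for differentiation. The growth medium also held EGF. Which medium the −LH cells were in was not given in the sources used here. On the 4 −LH arrays of the mPINC siRNA sets the milk genes *Csn3*, *Ltf* and *Lalba* were well above background throughout. *Csn2* and *Wap* were so on 0 of the 4. Both groups received 10 nM siRNA with a lipid reagent and all 3 hormones. The time of hormone treatment before these arrays was not given in the sources used here. For context, values are also given for cells with a negative control siRNA and hormones (siNEG +LH, n = 3, 1 of them on another slide), for both mPINC siRNA sets without hormones (n = 2 each, on another slide), and for hormone-treated cells with a lentivirus carrying GFP (LeGO-GFP, n = 3) or overexpressing the 2 major forms of *mPINC* (LeGO-1.0/1.6, n = 3). LeGO-GFP replicate 1 lay on another slide than the other 5 of these lentivirus arrays. LeGO-1.0/1.6 replicate 1 stood apart with 35790 probes well above background and 644 outlier spots, against 26016 to 29971 and 179 to 225 on the other 5. Hormone-treated cells overexpressing a deletion mutant of *mPINC* without its conserved regions (LeGO-DCR, n = 3) were in the lentivirus fit too. There they served only to estimate the spread. All groups came from this 1 line, and p-values measure the spread between cultures of it.

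Casein genes are read in response to prolactin, whose receptor acts through the kinase JAK2 and the transcription factor STAT5. STAT5 binds the letters TTCNNNGAA, a motif that reads the same on both strands, and ELF5 is another factor of alveolar cells. Milk secretion also needs tight junctions between the cells, built from claudins and occludin. Interferons act on genes whose promoters carry an element of 2 GAAA runs with 2 bases between them.

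The promoters of 6 genes are shown because of differences in their RNA between the groups that are described below. None of the 6 passed an adjusted p under 0.05 in the comparison of the 6 arrays (limma). Each is the 250 bases before the gene's start in RefSeq (assembly GRCm38.p6), written 5′ to 3′ on the gene's strand in lower case. In the first 3 the capitals mark the motif found by a search of both strands, TTCNNNGAA in the casein genes *Csn2* and *Csn1s1* and GAAA, any 2 bases, GAAA in the chemokine gene *Cxcl10*.
Csn2, chr5:87699426-87699675, minus strand: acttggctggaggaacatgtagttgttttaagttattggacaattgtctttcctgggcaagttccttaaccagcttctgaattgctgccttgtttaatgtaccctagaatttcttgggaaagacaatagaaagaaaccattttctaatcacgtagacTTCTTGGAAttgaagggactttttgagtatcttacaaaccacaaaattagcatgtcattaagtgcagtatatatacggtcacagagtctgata
Csn1s1, chr5:87665958-87666207, plus strand: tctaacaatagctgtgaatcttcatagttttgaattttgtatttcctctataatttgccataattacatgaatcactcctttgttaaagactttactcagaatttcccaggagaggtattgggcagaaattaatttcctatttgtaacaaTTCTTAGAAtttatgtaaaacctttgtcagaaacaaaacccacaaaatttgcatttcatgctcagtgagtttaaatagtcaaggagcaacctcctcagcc
Cxcl10, chr5:92348890-92349139, minus strand: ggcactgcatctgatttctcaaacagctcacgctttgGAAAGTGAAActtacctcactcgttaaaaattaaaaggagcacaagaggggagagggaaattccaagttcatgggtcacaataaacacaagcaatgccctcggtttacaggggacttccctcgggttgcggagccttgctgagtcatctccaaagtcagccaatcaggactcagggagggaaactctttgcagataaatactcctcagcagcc
The motif began 93 bases before the start of *Csn2*, 100 before that of *Csn1s1* and 213 before that of *Cxcl10*. In windows of this length TTCNNNGAA was present in 8.13% of 27025 genes and in 4 of the 17 milk genes with a window (23.5%), 4 of 24 interferon-stimulated genes (16.7%), and, past the methods' thresholds given below, 8 of 60 higher genes (13.3%) and 7 of 71 lower ones (9.86%). The interferon element was present in 3.46% of genes and in 12 of 24 interferon-stimulated genes (50%), but in 3.33% of those higher and 4.23% of those lower genes. A match of letters is a description and does not show binding.

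The other 3 are glandular kallikrein genes, which code for closely related secreted proteases. The capitals mark the longest run of bases that all 3 windows share.
Klk1b5, chr7:44216224-44216473, plus strand: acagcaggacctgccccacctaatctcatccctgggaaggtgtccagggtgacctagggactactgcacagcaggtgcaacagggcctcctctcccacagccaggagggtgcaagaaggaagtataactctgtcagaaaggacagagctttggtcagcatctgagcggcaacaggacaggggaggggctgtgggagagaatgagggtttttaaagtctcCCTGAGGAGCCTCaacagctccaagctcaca
Klk1b26, chr7:44012428-44012677, plus strand: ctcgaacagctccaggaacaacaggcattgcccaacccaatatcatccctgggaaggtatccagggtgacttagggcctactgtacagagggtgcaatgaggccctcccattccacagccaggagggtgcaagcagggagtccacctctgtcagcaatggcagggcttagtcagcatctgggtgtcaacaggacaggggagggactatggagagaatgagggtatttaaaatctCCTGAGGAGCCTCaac
Klk1b22, chr7:44112423-44112672, plus strand: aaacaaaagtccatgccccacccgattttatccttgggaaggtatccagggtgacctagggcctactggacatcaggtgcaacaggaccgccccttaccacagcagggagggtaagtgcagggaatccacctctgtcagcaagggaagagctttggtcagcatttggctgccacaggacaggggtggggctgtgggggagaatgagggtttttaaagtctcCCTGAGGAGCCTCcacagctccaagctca
The shared run was 13 bases long. The windows of the 14 genes of the family lay within 275 kb of chromosome 7, and the median identity between their pairs was 62.7% (31.9% to 97.7%).

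Between 24261 and 29055 of 55681 probes were well above background on the 6 arrays, and no spot was saturated. The 2 dimmest arrays were siPINC1.0/1.6 replicate 3 (24261 probes) and siPINC replicate 2 (24484), 1 in each group and both in row 1 of the slide. By replicate, siPINC1.0/1.6 lay in columns 2, 2 and 3 of the slide and siPINC in columns 3, 4 and 4. Column and siRNA set thus largely ran together, and the part of column was not tested. Over the 22571 probes well above background on all 6 arrays, replicates correlated with r of 0.9954 to 0.9975. The SD of the difference between 2 arrays was 0.197 to 0.274 (log2) within a group and 0.252 to 0.331 between groups. Of 10 luminal marker genes, 6 were above background on all 6 arrays (*Krt8*, *Krt18*, *Epcam*, *Cdh1*, *Elf5* and *Kit*) and 4 on none (*Krt19*, *Esr1*, *Pgr* and *Foxa1*). All 4 basal markers and 4 of 5 milk markers were above background on every array, and the milk protein gene *Wap* on none. Markers of other cells were also read, with 5 of 6 fibroblast, 2 of 5 immune, 1 of 3 endothelial and 1 of 3 adipocyte genes above background throughout.

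The 1 probe for *mPINC* itself was dim. Its log2 signal was 5.25, 5.11 and 4.83 with siPINC1.0/1.6 and 4.76, 4.20 and 4.15 with siPINC, against a mean of 4.87 in siNEG cells. The groups did not overlap, and siPINC cells were lower. The probe was well above background on 2 arrays of the first group and 1 of the second, so these are values near the floor of the array. The difference of 0.69 ± 0.210 (SE, limma on 6 arrays) had an adjusted p of 0.375. Without hormones it was 0.06, with the probe well above background on all 4 arrays. Which splice forms the probe reads is not given, so its signal cannot be divided among them. In +LH cells the array gives no firm check of knockdown. The study measured knockdown by qPCR, and it names *mPINC* among the array genes lowered by knockdown. In LeGO-1.0/1.6 cells the same probe stood 7.37 above LeGO-GFP.

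Few probes separated the siRNA sets after adjustment for all probes. Of 55681, 24 passed an adjusted p under 0.05 (limma, Benjamini-Hochberg; 0.0431% of probes), with siPINC1.0/1.6 above siPINC in 11 (0.0198%) and below it in 13 (0.0233%). Of the 24, 14 had a gene symbol. Several higher probes without a symbol read 1 overlapping interval of chromosome 6, with differences of 0.85 to 1.00. The 11 higher probes thus stand for fewer separate loci. At an unadjusted p under 0.05 there were 5538 probes (9.95%), and 164 probes had an adjusted p under 0.06. The methods' thresholds, an unadjusted p under 0.01 with a fold over 1.8, held for 327 probes by limma (0.587%). They were higher in 148 (0.266%) and lower in 179 (0.321%). The study applied these thresholds to each siRNA set against siNEG in −LH cells, with another test than limma's. For its selection that included +LH cells it took a lower fold. The calls depended on how the spread was estimated: with the siNEG arrays in the fit 509 probes passed (0.914%), 246 higher (0.442%) and 263 lower (0.472%), among them 21 of the 24. Leaving out any 1 of the 6 arrays left 0 calls, with 4678 to 5549 probes at p under 0.05. All 24 kept their direction each time, but this was fixed in advance, because the groups did not overlap in any of them. In bulk RNA, fewer cells that express a gene and less RNA of it per cell cannot be told apart.

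**Figure D1:**
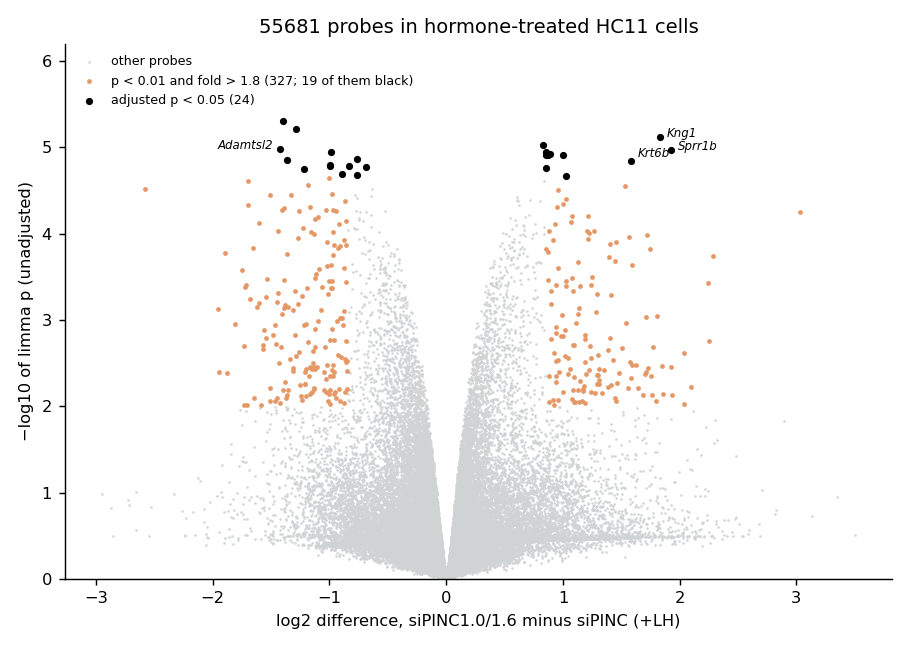
Difference between the siRNA sets for each probe, siPINC1.0/1.6 minus siPINC in +LH cells (log2, horizontal), against −log10 of limma's unadjusted p (vertical). The 24 probes past an adjusted p of 0.05 are marked, 11 to the right and 13 to the left.

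Among the genes that were higher with siPINC1.0/1.6, 3 belong to the cornified envelope list, the proteins of squamous, skin-like epithelium. *Krt6b* codes for a keratin of activated keratinocytes, and its log2 signal was 11.50, 11.45 and 11.41 against 10.06, 9.77 and 9.78. The groups did not overlap (difference 1.58 ± 0.0947, adjusted p = 0.0469), and siNEG cells lay below both at 8.25, 8.29 and 8.40. The gene's other probe well above background on all 6 arrays had a smaller difference of 0.43 ± 0.102, which missed the threshold (limma adjusted p = 0.249). *Krt16*, its companion keratin in such cells, was at 10.44, 10.35 and 10.44 against 9.46, 9.29 and 9.41 (1.02 ± 0.0665, adjusted p = 0.0496). *Sprr1b*, a small proline-rich envelope protein, was at 3.83, 3.84 and 4.17 against 2.06, 1.99 and 2.02 with an adjusted p of 0.0469. It was not well above background on any of the 6 arrays, so its fold is not given.

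Of 27 genes of the cornified envelope list, 6 were higher and 0 lower at an unadjusted p under 0.01, where 3.29% of all 20169 genes (1 probe each) were higher and 2.46% lower at this p. Its median difference was 0.26, against 0.0044 over all genes. Besides the 3 called genes these were *Sprr1a* (0.62), the keratin gene *Krt17* (0.56) and the cystatin gene *Cst6* (0.31). Against siNEG, 9 genes of the list were higher with siPINC1.0/1.6 and 4 with siPINC at an adjusted p under 0.05, where 3.94% and 1.13% of all genes were. These comparisons used the same siNEG arrays.

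The other called genes that were higher have varied roles. *Tmprss4*, a membrane serine protease, was at 10.55, 10.49 and 10.44 against 9.56, 9.61 and 9.64 (0.89 ± 0.0514, adjusted p = 0.0469). *Kng1*, the kininogen precursor from which bradykinin is cut, was at 6.16, 6.16 and 5.96 against 4.12, 4.37 and 4.30 (1.83 ± 0.0962, adjusted p = 0.0469). It stood well above background on all 3 arrays of the first group and 1 of the second, and with normexp background correction the difference was 0.73. *Bmper*, a secreted modulator of BMP signalling, was at 9.38, 9.43 and 9.42 against 8.62, 8.55 and 8.48 (0.86 ± 0.0534, adjusted p = 0.0469). For *Tmprss4* siNEG cells were lower than both sets, with a mean log2 difference of 2.03 from siPINC1.0/1.6 and 1.14 from siPINC. For *Kng1* these values were 1.78 and −0.05.

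Another 7 of the higher genes named by size missed the adjusted threshold at an unadjusted p under 0.01. *Cxcl5*, a neutrophil chemokine, was at 7.85, 8.29 and 8.04 against 6.33, 6.53 and 6.61 (1.57 ± 0.142, adjusted p = 0.0543). *Akr1c18*, which breaks down progesterone, differed by 1.74 (adjusted p = 0.0572) and the protease inhibitor gene *Serpina3f* by 1.73 (adjusted p = 0.175). The other 4 were not well above background on any siPINC array, so a bound is given. This sets the mean of the bright group against the lowest signal well above background on each array of the dim group, or the probe's own signal where that was higher. The cytokine gene *Il6* was at least 2.43-fold higher, the acute phase gene *Saa3* at least 2.66-fold, the hyaluronan-binding *Tnfaip6* at least 1.93-fold and the cystatin-like *Stfa1* at least 1.49-fold.

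Of the 8 named genes that were lower with siPINC1.0/1.6 past the adjusted threshold, *Adamtsl2* had the largest difference. It codes for a matrix glycoprotein, and its signal was 6.15, 6.18 and 6.11 against 7.65, 7.42 and 7.64 (−1.42 ± 0.0796, adjusted p = 0.0469). *Lyzl4*, a lysozyme-like gene, was at 6.18, 5.99 and 6.09 against 7.54, 7.35 and 7.46 (−1.36 ± 0.0812, adjusted p = 0.0469). *Gpm6b*, a membrane proteolipid, was at 7.27, 7.35 and 7.2 against 8.38, 8.50 and 8.59 (−1.22 ± 0.0765, adjusted p = 0.0469). *Arhgdig*, *Ptprz1*, a receptor phosphatase, *Sh2d4a*, an adaptor protein, and *Cox7a1*, a subunit of cytochrome oxidase, had differences of −1.0, −0.99, −0.83 and −0.76. *Sh2d4a* was well above background on 2 of the 3 siPINC1.0/1.6 arrays, and its difference was −0.16 with normexp background correction. With the siNEG arrays in the fit *Lyzl4* and *Sh2d4a* missed the threshold (limma adjusted p = 0.0553 and 0.428). In *Lyzl4*, *Arhgdig* and *Cox7a1* siPINC cells differed from siNEG by −0.20, −0.14 and 0.13, and siPINC1.0/1.6 cells by −1.57, −1.13 and −0.64.

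**Figure D2:**
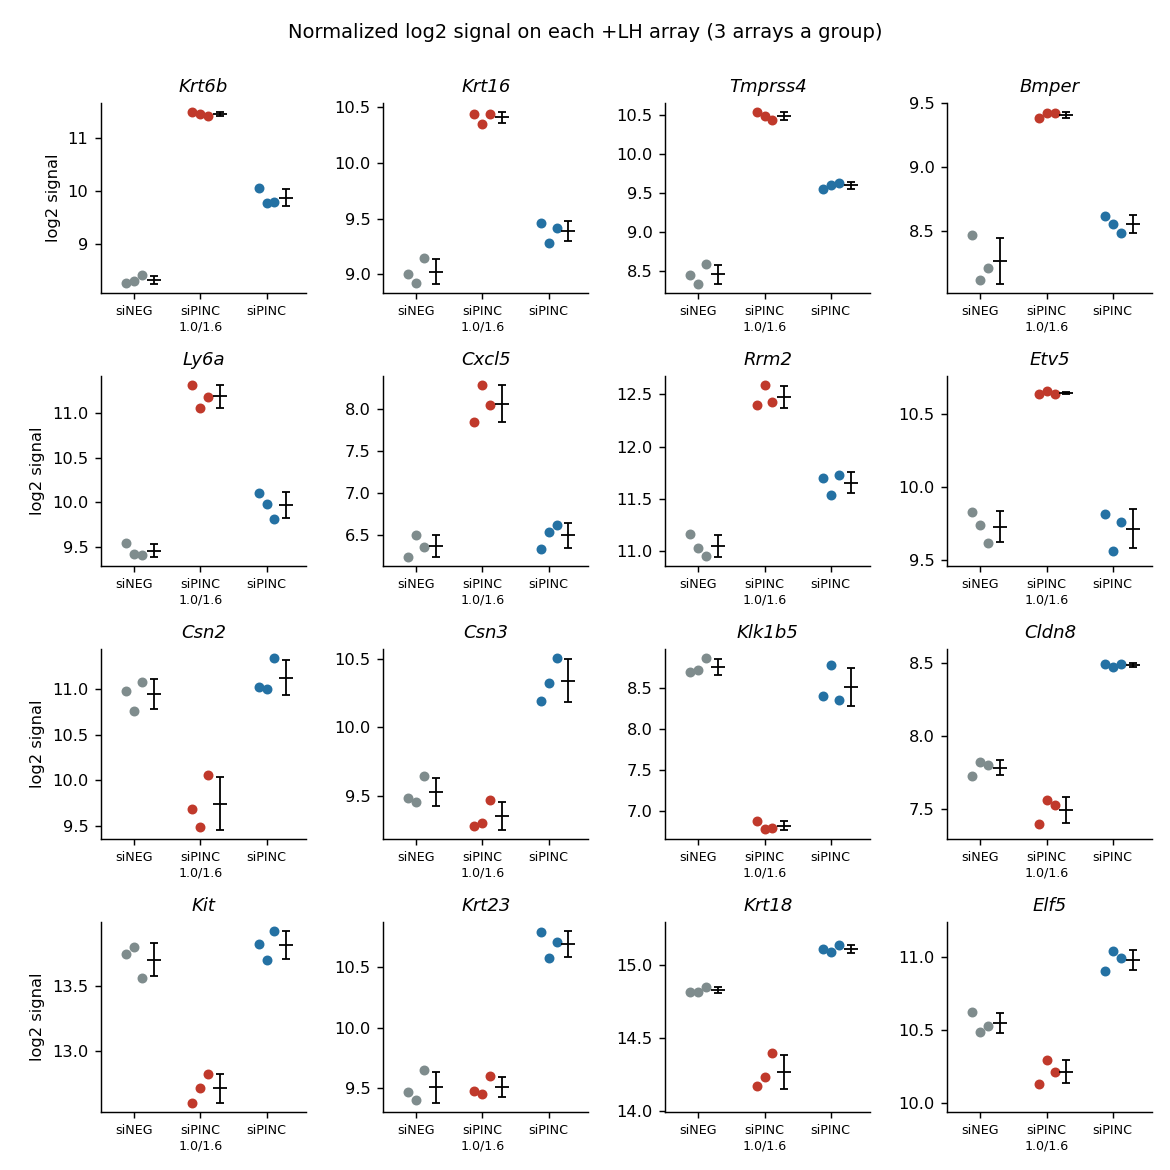
Log2 signal of 16 genes on each array of siNEG, siPINC1.0/1.6 and siPINC +LH cells (1 dot per array, n = 3 per group, with the mean and SD). *Krt6b* steps up from siNEG through siPINC to siPINC1.0/1.6, whereas *Csn2* is near 11 in siNEG and siPINC cells and between 9.48 and 10.06 with siPINC1.0/1.6.

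The eighth was a tight junction gene. *Cldn8*, a claudin of tight epithelia, was at 7.39, 7.56 and 7.53 with siPINC1.0/1.6, 8.49, 8.47 and 8.49 with siPINC and 7.73, 7.82 and 7.80 with siNEG. The groups did not overlap, and siNEG lay between them (difference −0.99 ± 0.0606, adjusted p = 0.0469). Of the 27 tight junction and ion transport genes, 10 were lower and 1 higher at p under 0.01 (median −0.20). The scaffold gene *Tjp3* differed by −0.66, *Cldn23* by −0.63, *Cldn7* by −0.52, the chloride cotransporter gene *Slc12a2* by −0.45, the junction protein cingulin (*Cgn*) by −0.42 and occludin (*Ocln*) by −0.38. The 1 gene that was higher was the water channel *Aqp5* (0.23). The list's median against siNEG was −0.04 with siPINC1.0/1.6 and 0.16 with siPINC, and 4 of its genes were higher in siPINC cells at an adjusted p under 0.05.

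Caseins, the main proteins of milk, were lower with siPINC1.0/1.6 than with siPINC at an unadjusted p. *Csn2*, the beta-casein gene, was at 9.69, 9.48 and 10.06 against 11.02, 11.0003 and 11.34 in siPINC cells, and siNEG cells were at 10.98, 10.76 and 11.08. The ranges of siPINC and siNEG overlapped and siPINC1.0/1.6 lay below both (−1.38 ± 0.184 against siPINC, limma adjusted p = 0.088). With the siNEG arrays in the fit the adjusted p was 0.0213. *Csn3*, the kappa-casein gene, was at 9.29, 9.31 and 9.47 against 10.19, 10.32 and 10.51 (−0.99 ± 0.105, adjusted p = 0.0635). There it was siPINC that differed from siNEG, whose arrays were at 9.49, 9.46 and 9.65. *Csn1s1*, the alpha-casein gene whose promoter is shown above, was at 6.15, 6.09 and 6.13 against 6.44, 6.99 and 7.09 (adjusted p = 0.294 by limma).

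Of 24 milk and lactation genes, 7 were lower and 0 higher at p under 0.01 (median −0.19). They included the lipid droplet genes *Cidea* (−0.57) and *Plin2* (−0.34), the membrane lipoprotein gene *Mal* (−0.54) and the secreted protein gene *Pip* (−0.30). The seventh, the calcium pump gene *Atp2b2*, was well above background on 1 of the 6 arrays, which gives no usable fold. Not all milk genes differed. *Ltf*, lactoferrin, had a difference of −0.17 and *Lalba*, alpha-lactalbumin, of −0.20, with adjusted p of 0.708 and 0.704 by limma. With siNEG in the fit 4 of the list passed an adjusted p of 0.05, all lower, where 0.873% of genes did.

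Genes of the prolactin, glucocorticoid and insulin pathways had 4 of 24 lower and 0 higher at p under 0.01 (median −0.09). *Elf5*, the alveolar transcription factor, was at 10.13, 10.29 and 10.21 with siPINC1.0/1.6, 10.90, 11.04 and 10.99 with siPINC and 10.62, 10.49 and 10.53 with siNEG, so that siNEG again lay between the siRNA sets (−0.77 ± 0.0664, adjusted p = 0.0534). The receptor substrate gene *Irs1* differed by −0.44, the prolactin feedback gene *Cish* by −0.42 and the prolactin receptor gene *Prlr* by −0.33. *Jak2* and *Stat5b* had smaller differences of −0.17 and −0.19, with adjusted p of 0.312 and 0.337 by limma.

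Markers of luminal progenitors, the cells from which alveoli form, were mixed, with 3 of 9 lower and 1 higher. *Kit*, a receptor kinase, was at 12.60, 12.72 and 12.83 against 13.82, 13.71 and 13.92, and siNEG was at 13.75, 13.80 and 13.56 (−1.10 ± 0.0899, adjusted p = 0.0534). *Cd14* differed by −0.49 and *Itgb3*, an integrin subunit, by 0.35. Of the 13 simple and basal keratins, 3 were lower and 3 higher. *Krt18*, of simple epithelia, was at 14.17, 14.23 and 14.40 against 15.10, 15.08 and 15.14 (−0.84 ± 0.0738, adjusted p = 0.0534), and its partner *Krt8* differed by −0.35. *Krt23* differed by −1.19, with siPINC cells above the other groups: its difference from siNEG was 1.19 with siPINC and 0.005 with siPINC1.0/1.6. *Krt79*, *Krt13* and *Krt15* were higher, by 0.55, 0.27 and 0.24. *Ly6a*, a surface antigen, was at 11.32, 11.06 and 11.18 against 10.11, 9.98 and 9.81, and siNEG cells were at 9.41 to 9.54.

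Proliferation genes gave the broadest shared difference of the lists. Of 30, 24 were higher and 0 lower at p under 0.01, and the median was 0.42. *Rrm2*, a subunit of ribonucleotide reductase, was at 12.39, 12.59 and 12.43 against 11.70, 11.54 and 11.73 (0.82 ± 0.0854, adjusted p = 0.0631). The replication helicase gene *Mcm5* differed by 0.77, the cyclin gene *Ccne1* by 0.75, *Mcm3* by 0.63, *E2f1*, which drives entry into S phase, by 0.56 and *Mki67*, the Ki-67 antigen, by 0.26. No gene of the list passed the adjusted threshold in the 6 arrays, and 17 did with siNEG in the fit, all higher, where 0.942% of genes did. Without the 2 dimmest arrays 18 were higher at p under 0.01. Both sets were above siNEG: the list's median difference was 0.99 with siPINC1.0/1.6 and 0.55 with siPINC, with 26 and 21 genes higher at an adjusted p under 0.05. These medians share the siNEG arrays.

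ERK feedback and immediate early genes, which growth factor signals switch on, had 7 of 18 higher and 0 lower (median 0.38). *Etv5*, a factor induced by ERK signalling, was at 10.64, 10.66 and 10.64 against 9.82, 9.57 and 9.76, and siNEG was at 9.83, 9.74 and 9.62. Here siPINC and siNEG overlapped, and siPINC1.0/1.6 was above both (0.93 ± 0.0789, adjusted p = 0.0534). The phosphatase genes *Dusp4* and *Dusp6* differed by 0.94 and 0.54, *Etv4* by 0.87, *Myc* by 0.64, *Egr1* by 0.56 and *Fos* by 0.43. Against siNEG 7 genes of the list were higher with siPINC1.0/1.6 and 0 with siPINC (limma, adjusted p under 0.05). The hypoxia and glycolysis genes ran the other way, with 15 of 16 differences below 0 and a median of −0.38, but 1 gene, the glucose transporter *Slc2a1* (−0.54), was lower at p under 0.01.

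Interferon-stimulated genes were higher with siPINC1.0/1.6, 11 of 30 at p under 0.01 with 0 lower (median 0.38). *Oasl1*, of the oligoadenylate synthetase family, was at 7.24, 7.03 and 7.14 against 6.22, 6.12 and 6.32 (0.92 ± 0.0847, adjusted p = 0.0547). *Cxcl10*, whose promoter carries the element shown above, was at 6.41, 6.51 and 6.12 against 5.16, 5.36 and 5.29, and siNEG was at 5.28, 5.62 and 5.18. The antiviral genes *Oasl2*, *Bst2* and *Isg15* differed by 0.80, 0.69 and 0.53. Without the 2 dimmest arrays 3 of the 30 remained past p under 0.01, with the median at 0.34. The list's median over siNEG was 0.95 with siPINC1.0/1.6 and 0.54 with siPINC, with 21 genes and 1 gene higher at an adjusted p under 0.05. Of 19 antigen presentation genes 6 were higher and 1 lower (median 0.19). Beta-2-microglobulin (*B2m*) differed by 0.29, the peptide loading gene *Tapbp* by 0.35 and *H2-Q4* by −0.42. Without the 2 dimmest arrays 1 was higher and 0 lower.

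Among 34 innate defence and acute phase genes, 9 were higher and 2 lower (median 0.24). The chemokine gene *Cxcl1* was at 9.10, 9.24 and 9.06 against 7.91, 8.09 and 8.31 (1.02 ± 0.122), and complement *C3* differed by 0.57. The 2 lower genes were *Ccl9*, a chemokine (−0.52), and *Wfdc2*, a secreted protease inhibitor (−0.37). Each was highest in siPINC cells. Other lists differed less. TGF-beta, YAP and matrix genes had 5 of 29 higher, among them *Timp1* (0.66) and *Ankrd1* (0.51), with a median of 0.0019. Among 32 Wnt, Notch and endothelin genes 4 were lower, *Wnt5b* (−0.98), *Ednra* (−0.77), *Notch3* (−0.43) and *Edn1* (−0.38), and 2 higher. The p53 targets had 2 of 14 higher, and mesenchymal genes 2 of 18, *S100a4* (0.84) and *Snai1* (0.69). Basal genes had 1 of 17 in each direction and mature luminal genes 1 of 13. The unfolded protein list had 1 of 20 in each direction.

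Subunits of PRC2, a chromatin complex that silences genes, had 0 of 11 genes at p under 0.01 in either direction (limma; 2 higher at p under 0.05, where 7.5% of all genes were higher and 6.25% lower, median 0.04). The RNA interference machinery had 0 of 15 (2 higher and 2 lower at p under 0.05, median −0.07), and sterol and fatty acid synthesis 0 of 27 (1 lower at p under 0.05). Among 15 markers of immune, endothelial and fat cells the fatty acid binding gene *Fabp4* was higher (0.68) and none lower at p under 0.01, with a median of −0.04. The part of such cells in the results was not tested. Of the 24 genes that the study's own text names, 2 were higher and 7 lower. They were picked from these samples and are not independent evidence. Without the 2 dimmest arrays, 4 cornified envelope, 6 ERK and 9 innate defence genes were higher at p under 0.01, and 7 tight junction, 6 milk and 4 hypoxia genes lower. The part of array brightness in these differences was not tested further.

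**Figure D3:**
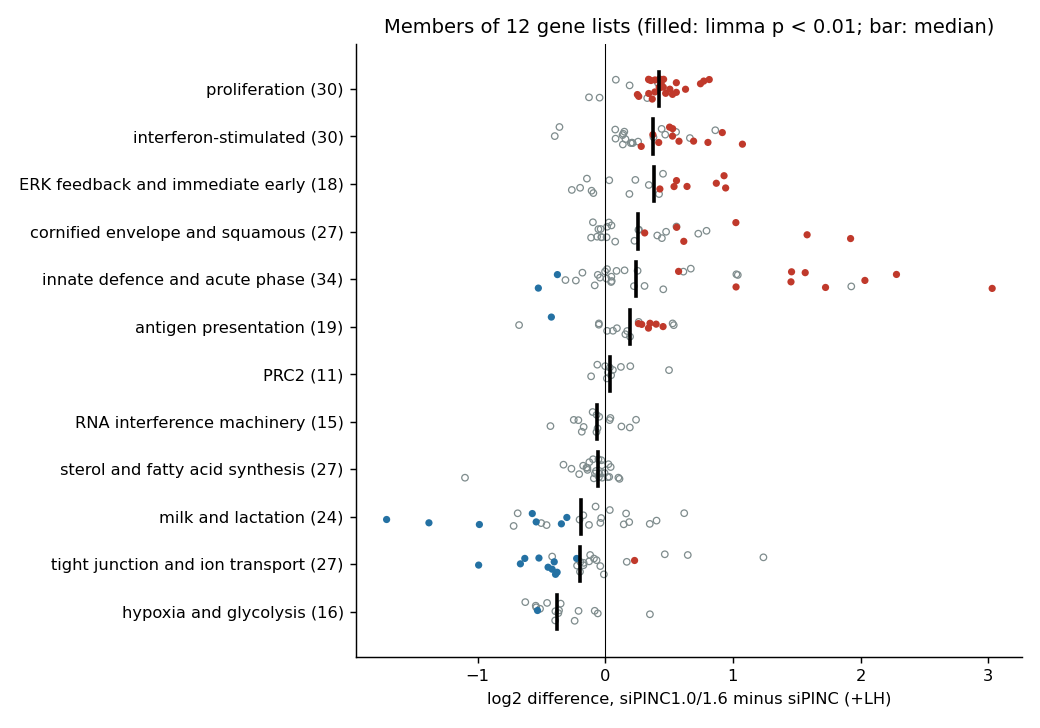
Differences of the genes in 12 lists (log2, siPINC1.0/1.6 minus siPINC, +LH), 1 dot per gene, filled where limma's unadjusted p was under 0.01, with a bar at the list's median. Proliferation genes lie to the right of 0 with a median of 0.42 and tight junction genes to the left with a median of −0.20.

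The glandular kallikreins were grouped after their values were seen, because *Klk1b26*, *Klk1b5* and *Klk1b22* were 3 of the 4 lower genes named by size that missed the adjusted threshold. The fourth was *6330407A03Rik*, an unannotated transcript, at least 1.6-fold lower. *Klk1b5* was at 6.88, 6.78 and 6.79 with siPINC1.0/1.6, 8.40, 8.78 and 8.36 with siPINC and 8.69, 8.72 and 8.87 with siNEG (−1.70 ± 0.129, adjusted p = 0.0513). *Klk1b26* was at 5.51, 5.44 and 5.12 against 7.19, 7.36 and 6.78, and siNEG was at 7.31 to 7.51. *Klk1b22* was at 4.41, 4.80 and 3.93 against 6.10, 5.78 and 5.95. In all 3 siPINC1.0/1.6 stood below the other groups. Of 14 genes of the family 8 were lower and 0 higher at p under 0.01, and the median was −1.34. Its median against siNEG was −1.52 with siPINC1.0/1.6 and −0.22 with siPINC. *Klk1b21* was the smallest of the clear signals at −0.23, and *Klk1b1* and *Klk1b27*, both near the floor, had differences of −0.02 and 0.05. The sequences of these genes are close enough that a probe may read several of them, and the number of genes behind the pattern cannot be told apart.

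**Figure D4:**
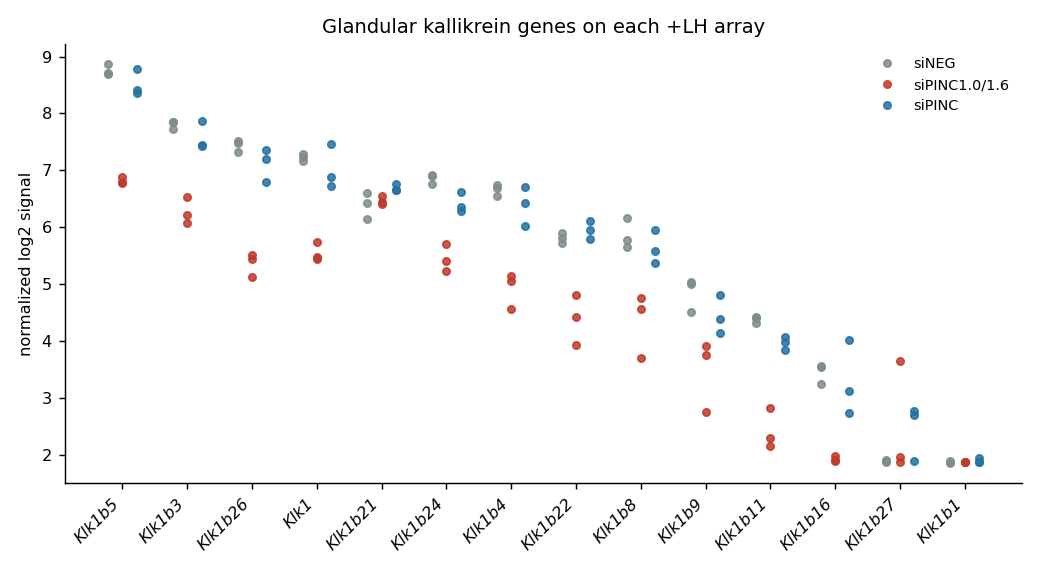
Log2 signal of 14 glandular kallikrein genes on each +LH array of the siNEG, siPINC1.0/1.6 and siPINC groups (1 dot per array). For *Klk1b5* the siPINC1.0/1.6 arrays lie between 6.78 and 6.88 and the siPINC arrays between 8.36 and 8.78.

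The position of siNEG differed between the directions. Of the 67 higher probes past the methods' thresholds and well above background, the siNEG mean was below both sets in 51 and between them in 16. Of the 79 lower ones it was between them in 50, above both in 28 and below both in 1. Over all 24353 probes with such a signal, it was below both in 8024, between in 6722 and above both in 9607. Each mPINC siRNA set was also set against the same siNEG arrays. With siPINC1.0/1.6 2140 probes passed an adjusted p of 0.05 (3.84%), and with siPINC 379 (0.681%).

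The same siRNA sets were compared without hormones to see whether a difference was there before differentiation. In a fit of 10 arrays 1711 probes passed an adjusted p of 0.05 (3.07%), 697 higher (1.25%) and 1014 lower (1.82%). In the 6 arrays of −LH cells alone, 2 of them with the control siRNA (siNEG −LH), 10 passed. The larger count thus rests on the spread of the +LH arrays. *Csn2* was near the floor in both −LH groups (1.95 and 1.95 against 1.90 and 1.91). *Csn3* was already apart there, at 4.74 and 4.91 against 6.98 and 7.13. Proliferation genes had a median of 0.14 without hormones. *Klk1b5*, *Klk1b26* and *Klk1b22* were well above background on 0 of the 4 −LH arrays, so their differences there are not given. Innate defence genes differed more without hormones than with them (median 0.96), 16 of the 34 higher at an adjusted p under 0.05 (2.15% of all genes). *Cxcl5* was at 12.54 and 12.36 against 10.04 and 9.96.

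The difference between the siRNA sets was then compared between +LH and −LH cells by an interaction term (limma). It passed an adjusted p of 0.05 for 658 probes (1.18%), more positive with hormones in 410 (0.736%) and more negative in 248 (0.445%). Hormones and slide ran together here, each siRNA pair being compared within a slide. A difference in medium between +LH and −LH cells was not tested. *Tmprss4* was lower with siPINC1.0/1.6 without hormones (9.79 and 9.81 against 10.17 and 10.21, −0.39) and higher with them, an interaction of 1.28 ± 0.0766 (adjusted p = 0.002). *Etv5* went from −0.25 to 0.93 (interaction adjusted p = 0.00798) and *Egr1* from −0.39 to 0.56 (adjusted p = 0.00644). *Edn1*, the endothelin-1 precursor, went from 1.77 to −0.38 (adjusted p = 0.00205), its −LH signal being 6.94 and 6.65 against 5.0 and 5.06. *Krt18* went from 0.34 to −0.84 (adjusted p = 0.00887) and *Cldn23* from 0.65 to −0.63 (adjusted p = 0.00566).

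A number of genes had a larger difference without hormones. *Krt15* was at 9.28 and 9.32 against 12.38 and 12.39 without hormones and at 15.40, 15.45 and 15.49 against 15.28, 15.13 and 15.20 with them. *Pip* differed by −1.70 without hormones and −0.30 with them, and *Csn3* by −2.22 and −0.99. Some did not depend on hormones by this test, with *Wnt5b* at −0.91 and −0.98 (interaction adjusted p = 0.9) and *Gpm6b* at −1.27 and −1.22 (0.976). A p that misses the threshold does not show that such differences were equal.

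**Figure D5:**
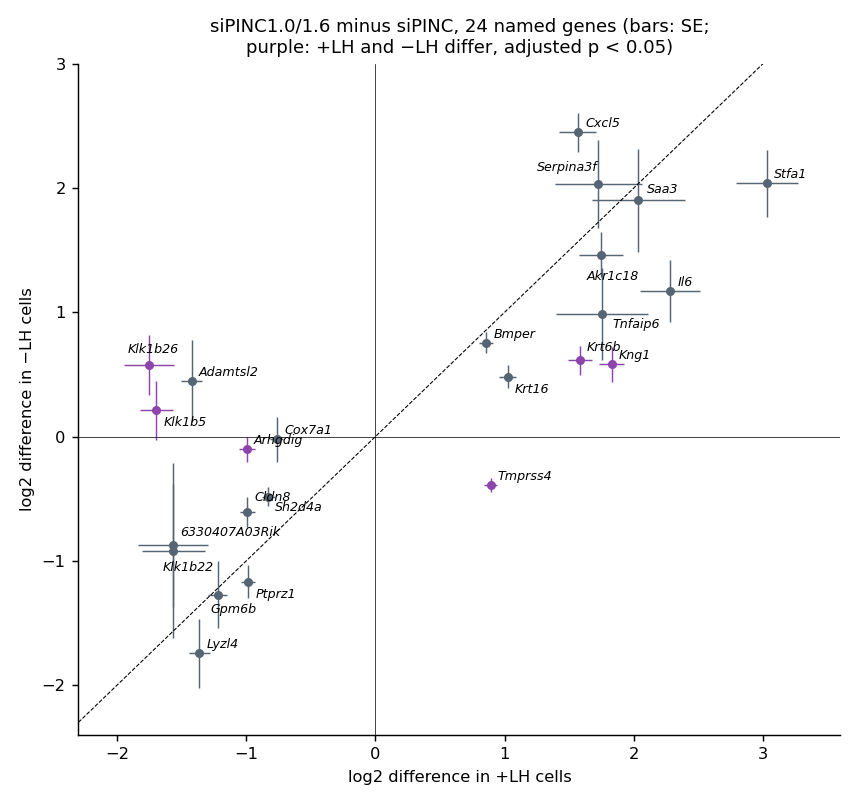
Difference between the siRNA sets (log2, siPINC1.0/1.6 minus siPINC) with hormones against that without hormones for the 24 genes chosen by size, with SE bars. Purple marks an interaction past an adjusted p of 0.05, among them *Tmprss4*, which is at −0.39 without hormones and 0.89 with them. The 3 kallikreins in it, *Adamtsl2*, *Sh2d4a* and *6330407A03Rik* were well above background on 0 of the 4 −LH arrays. *Cldn8* and *Lyzl4* were so on 1 of the 4, so the −LH positions of all these genes are values near the floor.

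In cells that overexpressed *mPINC1.0* and *mPINC1.6*, the difference from LeGO-GFP (16857 probes called, 30.3%) had the same sign as the difference between the siRNA sets in 118 of the 146 probes past the methods' thresholds and well above background (80.8%). Over all probes with such a signal the share was 57.5%. Without LeGO-1.0/1.6 replicate 1 the sign was the same in 117, and without LeGO-GFP replicate 1 in 119. The kallikreins had a median of −3.40 in LeGO-1.0/1.6 cells, milk genes of −0.80, tight junction genes of −0.69 and proliferation genes of 1.20. The medians were near 0 for hypoxia genes (0.07), luminal progenitor genes (0.02) and the cornified envelope list (0.01), which had −0.38, −0.24 and 0.26 between the siRNA sets. The hypoxia median was −0.23 without LeGO-1.0/1.6 replicate 1. The log2 difference there was −4.25 for *Csn2*, −5.62 for *Cldn8*, −4.62 for *Kit* and −5.47 for *Elf5*. Of the 24 called probes 20 had the same sign, but not all 20 were called in the lentivirus comparison. *Gpm6b* (−0.43) and *Sh2d4a* (−0.89) were not (limma adjusted p = 0.534 and 0.415). The higher probes of 1 chromosome 6 interval were at 0.10 to 0.18 (limma adjusted p = 0.151 to 0.341). Other probes without a symbol were at −0.02 and −0.01. Among the genes opposite in sign were *Tmprss4* and *Ly6a*, at −2.45 and −2.19, and *Ptprz1*, at 2.72 and 3.07 in its other bright probe. The 2 *Krt6b* probes were at −0.51 and 0.51, opposite to each other.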

How the data were processed

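RNA of 24 HC11 cultures was hybridised, 1 culture per 1-colour (Cy3) Agilent array. The authors deposited intensity values from Feature Extraction 11.0.1.1 (processed signal, corrected within each array for background and spatial trend) and a table of log2 values, quantile normalized over the arrays. The log2 table served as an alternative. Here the processed signals of 59305 non-control spots were log2 transformed, then quantile normalized over 24 arrays. Outlier spots, 172 to 280 on each of the 6 arrays, were dropped and the spots of each of 55681 probes averaged, dim probes included. Array number and signal over background limit the precision.

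The 6 arrays were fitted with limma 3.58.1 in R 4.3.3 (lmFit, eBayes), with Benjamini-Hochberg adjustment over all probes. The siNEG contrasts came from a fit of the 9 +LH siRNA arrays, and −LH values and the interaction from 10 arrays. The lentivirus values came from 9 arrays, LeGO-DCR included. Symbols came from the study's supplementary tables (455 probes) or the RefSeq accession (26161), and 29065 probes had none. The brightest probe stood for a gene. Of 71 other bright probes of the named and listed genes, 13 had the opposite sign.

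Named genes were the listed genes and, in each direction, the 12 of largest difference whose groups did not overlap, whose probe had a symbol and was bright (well above background) throughout a group, and whose adjusted p was under 0.05, filled up from p under 0.01. Members, lists and tests were chosen with earlier results of these data known. The fit was tested on simulated data. Figures used Python 3.11.15, pandas 2.3.3, numpy 2.4.6 and matplotlib 3.10.9. Alternatives were 75th percentile scaling, quantile normalization over the fitted arrays, normexp (offset 50), bright probes only, a trended and robust prior, the methods' t-test, a replicate block, the deposited log2 table, other sets of arrays and leaving out each array.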

Additional observations from a re-analysis of the deposited data

Results flagged for a closer look

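The difference between the siRNA sets (siPINC1.0/1.6 minus siPINC) itself differed between +LH and −LH cells for 658 probes at an adjusted p under 0.05 by limma's interaction term. The values here are +LH minus −LH on the log2 scale, and each passed that test unless noted. Among epithelial genes it was more positive with hormones for *Krt15* (3.33), *Krt6b* (0.97; −0.29 in its other bright probe, limma adjusted p = 0.626), *Col17a1* (0.85), *Tmprss4* (1.28), *Ly6a* (1.01) and *Itgb3* (1.15), and more negative for *Krt18* (−1.18), *Cldn23* (−1.28), *Ocln* (−0.96), *Cldn7* (−0.66), *Cldn3* (−0.64) and *Arhgdig* (−0.89). Among milk and secretory genes it was more positive for *Pip* (1.40), *Csn3* (1.24) and *Kng1* (1.25) and more negative for *Mal* (−0.64), *Klk1b26* (−2.33) and *Klk1b5* (−1.91). Neither kallikrein was well above background on any of the 4 −LH arrays, so these 2 values have no measured −LH side. Among signalling and cell cycle genes it was more positive for *Etv5* (1.18), *Egr1* (0.95), *Dusp6* (0.65), *Fos* (0.44), *Plk2* (1.24), *Ccne1* (0.65) and *Mcm5* (0.59), and more negative for *Edn1* (−2.14). Among defence genes it was more positive for *Stat2* (0.55) and more negative for *Ccl9* (−1.38), *C3* (−1.06), *Cd14* (−0.74) and *Wfdc2* (−0.70).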

How the results depend on the processing

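For the +LH comparison, 24 probes were called. Alternatives gave 0 with 75th percentile scaling (3928 probes at p under 0.05 by limma), the replicate block (4347), the deposited log2 table (5244), and each array left out in turn (0 to 0). They gave 248 with quantile normalization over the 6 arrays, 437 with normexp, 1123 with bright probes, 716 with the trended and robust prior, and 36 with the methods' t-test after Benjamini-Hochberg. Further arrays in the fit gave 280 (8 arrays of the slide), 509 (9) and 1196 (24; 60.4% higher against 45.8%). After seeing the data, leaving out the 2 dimmest arrays and a slide row term were added, and both gave 0 (5936 and 4759 at p under 0.05). The 327 probes past p under 0.01 and fold 1.8 became 37 with normexp (32.4% higher against 45.3%), 157 with bright probes, 141 with the deposited table, 566 with 24 arrays and 554 without the 2 dimmest arrays. With the methods' t-test there were 230, and with 1 array left out 362 to 473, of which 67.2% were higher without siPINC1.0/1.6 replicate 3 and 27.9% without siPINC replicate 2. All 24 and 327 kept their direction in every alternative that tested them, but for 1 of the 327 with normexp. Fits that changed only the estimate of the spread could not alter a direction. For the 24, whose groups did not overlap, leaving out an array could not either.

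The 1711 calls without hormones became 752 with 75th percentile scaling, 2999 with bright probes, 1 with the methods' t-test, 2936 with the trended prior, 0 with the replicate block, 530 with the deposited table and 10 with the 6 −LH arrays (added after seeing the data). With 1 array left out they were 1166 to 1555, a lone −LH array being assumed to vary like the other groups. The 658 interaction calls became 141 (75th percentile; 72.3% positive against 62.3%), 1206 (bright probes), 1251 (trended prior), 0 (replicate block), 133 (deposited table; 77.4% positive), 1142 (24 arrays) and 305 to 1024 (1 array left out). The methods' t-test was not run for the interaction. Replicate numbers did not pair the samples: deviations of same-numbered +LH arrays correlated with r of 0.0937, −0.0511 and 0.021, and not every array correlated best with its own number. Pairing of the −LH arrays was not examined. In both −LH sets replicate 1 lay in row 1 of the slide and replicate 2 in row 2. The block fits, with 0 calls, rest on these replicate numbers. Among the lists at p under 0.01, tight junction genes lower went from 10 to 6 with 75th percentile scaling or the block, and antigen presentation genes higher from 6 to 2 and 0. Probes not well above background limit what can be said of *mPINC*, *Sprr1b*, *Stfa1* and *Il6*.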
